A study of Mus musculus with 2 samples.

Results

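*Retnla*, *Mgl2*, *Clec10a*, *Chil3*, *Arg1*, *Il4ra*, *Pdcd1lg2* and *Socs2* are genes by which alternatively activated macrophages of the mouse are commonly recognised. These 8 of the 31053 annotated genes were taken by their symbols. They were followed in adipose tissue macrophages (ATMs) of the epididymal fat of male C57/BL6 mice, sorted as CD45+ cells without T cell, B cell, eosinophil or neutrophil markers, with Ly6C low or absent and F4/80 present. The ATMs of 3 mice on control diet (CD) were pooled into 1 droplet-based single-cell library, and those of 3 mice given high-fat diet (HFD) overnight were pooled into another. The question was how a single lipid-rich feeding acts on these cells. Since each diet had 1 library and no replicate, no test between diets was possible and no p-value is given. All 95% intervals cover counting error only, and neither the spread between mice nor amplification is in them.

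Alternative activation is the state that macrophages take under IL-4 and IL-13, cytokines of type 2 immunity made by T helper cells, ILC2s, eosinophils and basophils. Both cytokines signal through receptors that hold the IL-4 receptor alpha chain, and the kinases bound to it activate the transcription factor STAT6, which switches on target genes. In lean fat depots this programme is linked to resident macrophages, while macrophages that come from blood monocytes accumulate in obesity. *Il4ra* encodes the receptor chain, *Socs2* an inhibitor of cytokine signalling, *Retnla* the secreted protein RELMα, *Chil3* the secreted chitinase-like protein Ym1, *Arg1* the enzyme that splits arginine into ornithine and urea, *Mgl2* and *Clec10a* the galactose-binding lectins CD301b and CD301a, and *Pdcd1lg2* the PD-1 ligand PD-L2.

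Cells with 200 to 3500 genes and at most 10% mitochondrial UMIs were kept, 2364 of 4459 barcodes in CD and 2021 of 3163 in HFD. The kept cells held 12284010 UMIs in CD, with a median of 4490.5 per cell, and 8086475 in HFD, with a median of 2792, so HFD cells were shallower, and detection of a class marker depends on depth. The libraries shared 14 barcodes, of which 7 were kept in both. All 8 markers of macrophages on the list, such as *Csf1r* and *C1qa*, had UMIs in every class, and all 4 markers of basophils and mast cells were at 0 over all kept cells. Levels below are UMIs of a gene per 1000000 UMIs summed over a group of cells (CPM). They were compared across cells with at least 1 UMI of a marker: Timd4+ (368 CD and 72 HFD cells), Lyve1+ (1172 and 415), Folr2+Lyve1- (872 and 581), Ccr2+ (1326 and 1131) and Trem2+ (638 and 168), and across cells with at least 10 UMIs of *Lyz1* (555 and 672, here Lyz1-high). Timd4+ and Lyve1+ cells stand for resident ATMs, Ccr2+ and Lyz1-high cells for monocyte-derived ones. The classes overlap: 531 of the 555 Lyz1-high CD cells were also Ccr2+, and 123 CD and 54 HFD cells were both Lyve1+ and Lyz1-high. Of the Timd4+ cells 286 of 368 in CD and 28 of 72 in HFD were also Lyve1+. Lyz1-high cells were the deepest class, with a median of 8205 UMIs in CD and 6609 in HFD, against 4052.5 and 2299 in Lyve1+ cells.

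The bases before the start of 3 members are shown for what results below turn on: *Retnla*, which was the most abundant transcript of both libraries, *Mgl2*, which was lower in HFD in every class, and *Chil3*, the member with the largest ratio of HFD over CD. The promoters come from RefSeq (GRCm38.p6), where 5 of the 8 members had an entry: *Retnla*, *Mgl2*, *Chil3*, *Il4ra* and *Pdcd1lg2*. The 250 bases before each start were searched on both strands for TTC and GAA with 4 bases of any kind between them, the spacing that STAT6 prefers, TTCNNNGAA, that of other STATs, and TTGCNNAA, the core that C/EBP factors bind. Printed are the bases that lie before the start in both RefSeq and GENCODE, with matches in capitals. *Retnla* is at chr16:48842551-48844461, plus strand, *Mgl2* at chr11:70130329-70137550, plus strand, and *Chil3* at chr3:106147554-106167564, minus strand (GENCODE vM21, GRCm38).
Retnla, chr16:48842359-48842550, plus strand: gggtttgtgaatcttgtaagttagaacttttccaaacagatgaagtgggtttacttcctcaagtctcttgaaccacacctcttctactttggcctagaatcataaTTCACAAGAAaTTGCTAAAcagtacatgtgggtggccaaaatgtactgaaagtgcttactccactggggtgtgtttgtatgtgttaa
Mgl2, chr11:70130107-70130328, plus strand: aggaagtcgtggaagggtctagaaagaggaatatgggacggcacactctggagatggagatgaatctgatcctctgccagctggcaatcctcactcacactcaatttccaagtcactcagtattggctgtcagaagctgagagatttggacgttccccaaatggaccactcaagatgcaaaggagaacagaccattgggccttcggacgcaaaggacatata
Chil3, chr3:106167565-106167814, minus strand: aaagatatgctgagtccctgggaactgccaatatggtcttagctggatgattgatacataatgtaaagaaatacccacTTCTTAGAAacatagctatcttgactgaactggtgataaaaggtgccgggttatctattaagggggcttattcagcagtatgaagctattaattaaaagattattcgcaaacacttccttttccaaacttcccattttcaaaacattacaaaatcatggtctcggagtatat
In *Retnla* the STAT6 letters TTCACAAGAA lay 145 to 136 bases before the RefSeq start, and the C/EBP letters TTGCTAAA followed 1 base later, 134 to 127 bases before it. *Pdcd1lg2* also held a STAT6 match, TTCCTCAGAA, 82 to 73 bases before its start, *Chil3* held TTCTTAGAA 172 to 164 bases before its start, and the windows of *Mgl2* and *Il4ra* held none of the 3 motifs. Of all 32851 promoters in the table, 5.85% held the STAT6 letters, 7.02% those of other STATs and 9.56% those of C/EBP. A match is a description of the letters and no measurement of binding.

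*Retnla*, the secreted RELMα, stood apart from the other members by its abundance. It was the gene with the most UMIs in both libraries, 3.50% of all UMIs of kept CD cells and 4.06% of those of HFD cells, and every kept cell had at least 1. The level was 34968.5 CPM in CD and 40550.1 CPM in HFD. Across classes in CD it was 50655 CPM in Lyz1-high cells, 39446 in Ccr2+, 36982 in Folr2+Lyve1-, 30943 in Lyve1+, 29945 in Timd4+ and 28971 in Trem2+ cells. In HFD the order was 56327 CPM in Lyz1-high, 47059.7 in Ccr2+, 36181 in Folr2+Lyve1-, 33200.5 in Lyve1+, 26469 in Trem2+ and 24223 in Timd4+ cells. No 2 neighbours in either order had intervals that met, and the highest class exceeded the lowest 1.75-fold in CD and 2.33-fold in HFD. The class sets share cells, so these levels are not independent of each other. Ccr2+ cells outside the Trem2+, Timd4+, Lyve1+ and Lyz1-high sets were at 25482 CPM in CD and 26786 in HFD, below Lyve1+ cells outside the Trem2+ and Timd4+ sets (33051 and 34419 CPM). Of the Ccr2+ cells 531 of 1326 in CD and 603 of 1131 in HFD were also Lyz1-high.

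**Figure D1:**
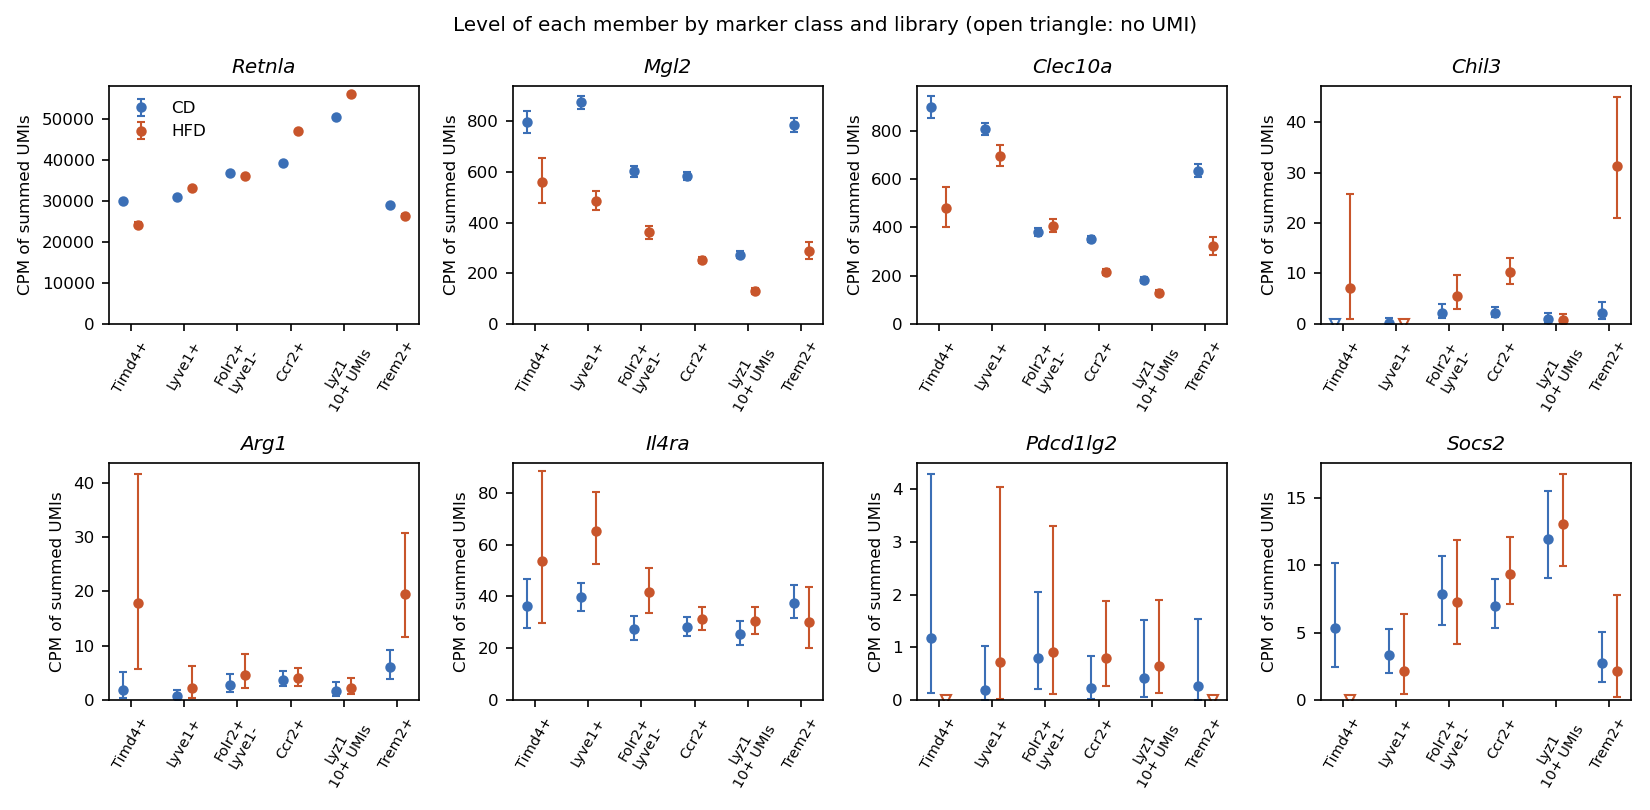
Level of each of the 8 members (y axis, CPM of summed UMIs, linear from 0, a scale of its own in each panel) in the 6 marker classes (x axis) of the CD (blue) and HFD (orange) libraries, with 95% exact Poisson intervals and open triangles where no UMI was counted. *Retnla* is highest in Lyz1-high cells (50655 and 56327 CPM), where *Mgl2* (273 and 129 CPM) and *Clec10a* (182 and 129 CPM) are lowest.

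Cells were then brought to an equal depth by drawing 800 UMIs from each. In CD 30 cells, and in HFD 147, had fewer than that and were left out. The median cell held 21 *Retnla* UMIs in CD and 18 in HFD. The quartiles were 9 and 34 in CD and 7 and 36 in HFD, and the highest cells had 192 and 154. This spread among cells holds the counting error of the draw, and with 1 library per diet no spread between libraries was measured. Lyz1-high cells had a median of 33 in CD and 39 in HFD, and only 2.34% and 2.08% of them had at most 5. Lyve1+ cells had a median of 21 in CD and 14 in HFD. In Trem2+ cells, set by 1 marker of lipid-associated macrophages, the median was 17 in CD and 6 in HFD, and the share with at most 5 was 23.0% in CD and 47.9% in HFD. The Trem2+ classes were made of different cells: 386 of 638 in CD and 32 of 168 in HFD were also Lyve1+, and the summed level of 6 lipid-associated markers, none of them at 0, was 955 CPM in CD and 2174 CPM in HFD. Over all kept cells this sum was 951 CPM in CD and 992 CPM in HFD, and in Lyz1-high cells it was 1428 and 1046 CPM. In CD the Trem2+ class was thus not set apart by these markers. The part of the makeup of the Trem2+ classes in the *Retnla* values was not tested. The share of cells with no *Retnla* UMI among 800 was 1.46% in CD and 1.81% in HFD.

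*Retnla* RNA was also found where it should be absent. Of the barcodes with at least 2 endothelial markers, 10 in CD (median 3348.5 UMIs) and 5 in HFD (median 905 UMIs), all had a *Retnla* UMI, so detection of *Retnla* in a cell cannot be told apart from free RNA. Their level was 4336 CPM in CD (95% interval 3743 to 4997) and 8281 CPM in HFD (6203 to 10832), below the lowest class of the same library, and C1q genes were at 2316 and 1562.5 CPM in them. Of these barcodes 50% in CD and 0% in HFD had a UMI of *Mgl2*, and 30% and 20% one of *Clec10a*, against 75.04% and 40.3% of kept cells for *Mgl2* and 77.9% and 56.7% for *Clec10a*. By level, *Mgl2* was at 250 CPM (125 to 447) and *Clec10a* at 68.1 CPM (14.0 to 199) in the CD endothelial barcodes. In 9 CD stromal barcodes they were at 452 (287 to 678) and 98.3 CPM (31.9 to 229). In 3 CD T or NK barcodes they were at 333 (108 to 777) and 799 CPM (413 to 1395). Lyz1-high CD cells were at 273 and 182 CPM, so low levels of the lectins cannot be told apart from free RNA. Barcodes with at least 2 markers of other types varied in *Retnla*. In CD it was at 7313 CPM in 9 stromal, 5458 in 3 T or NK and 13118 in 1 neutrophil barcode. In 1 CD B cell barcode it was at 27090 CPM (24004 to 30463), and in 1 HFD stromal barcode at 19920 (9553 to 36634). Both of these intervals held the level of the lowest class of their library. *Retnla* was at 40190 CPM (38456 to 41983) in 9 CD adipocyte barcodes and at 27862 (23407 to 32917) in 2 HFD ones. Barcodes with ILC2 markers, 157 in CD and 75 in HFD, were at 45955 and 49820 CPM. The 3 CD and 3 HFD barcodes with markers of peritoneal macrophages were at 17503 and 4546 CPM. C1q genes were at 11360 CPM in the CD B cell barcode and at 0 in the HFD stromal one. They were at 7847 and 3836 CPM in the adipocyte barcodes of CD and HFD, and at 4025 and 2139 CPM in the ILC2 ones. In kept CD cells with 1000 to 1999 genes C1q genes were at 12926 CPM, and in those with 2000 to 3500 at 8496 CPM. Whether the B cell, adipocyte and ILC2 barcodes held macrophages was not tested.

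**Figure D2:**
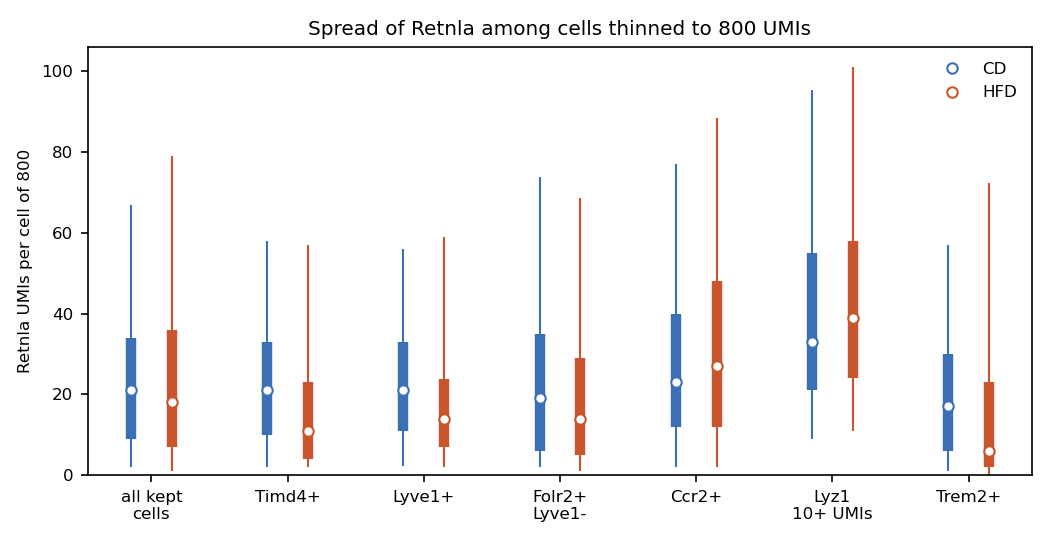
*Retnla* UMIs per cell after thinning each cell to 800 UMIs (y axis), for all kept cells and the 6 classes (x axis) in CD (blue) and HFD (orange): circles are medians, thick bars the quartiles and thin lines the 5th to 95th percentile of cells. The median of Lyz1-high cells is 33 in CD and 39 in HFD, and that of Trem2+ cells 17 and 6.

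HFD over CD of *Retnla* was 0.21 on the log2 scale over all kept cells (95% interval 0.21 to 0.22), under the 1.5-fold that served as the limit for a call. The ratio went in opposite directions among the classes, from -0.31 (-0.34 to -0.27) in Timd4+, -0.13 in Trem2+ and -0.03 in Folr2+Lyve1- cells to 0.10 in Lyve1+, 0.15 in Lyz1-high and 0.25 (0.25 to 0.26) in Ccr2+ cells. The mix of classes differed between the libraries. The share of Lyz1-high cells was 23.5% in CD (95% exact binomial interval 21.8 to 25.2) and 33.3% in HFD (31.2 to 35.4), and that of Lyve1+ cells 49.6% (47.5 to 51.6) and 20.5% (18.8 to 22.4). With the HFD levels of 7 non-overlapping classes weighted by their CD shares of UMIs, the ratio of *Retnla* was 0.004, and as the mean of each cell's own CPM it was -0.02. The part of the class mix and of depth in the ratio over all kept cells was not tested. The sum gives deep cells more weight: in Lyve1+ cells the ratio turned from 0.10 by summed UMIs to -0.32 by the mean of each cell's own CPM and to -0.29 in cells with 1000 to 2000 genes. Cells were also thinned to 800 UMIs and the classes set again from those UMIs, with Lyz1-high at 2 UMIs of *Lyz1*. The ratio of *Retnla* was then -1.18 in Timd4+, -0.57 in Trem2+, -0.56 in Lyve1+ and -0.56 in Folr2+Lyve1- cells, against 0.07 in Ccr2+ and 0.06 in Lyz1-high cells. With a marker limit of 2 UMIs it was -1.12 in Timd4+ and -0.82 in Trem2+ cells. *Retnla* was thus past 1.5-fold lower in Timd4+ cells under both settings and in Trem2+ cells under the second.

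*Mgl2* and *Clec10a*, unlike *Retnla*, were lowest in Lyz1-high cells. *Mgl2* was at 875 CPM in Lyve1+, 796 in Timd4+, 785 in Trem2+, 602 in Folr2+Lyve1-, 584 in Ccr2+ and 273 in Lyz1-high CD cells. The same classes had 485, 559.9, 287, 361, 253 and 129 CPM in HFD. Intervals of Timd4+ and Trem2+ cells met in CD, as did those of Folr2+Lyve1- and Ccr2+ cells, and in HFD those of Timd4+ and Lyve1+ and of Trem2+ and Ccr2+ cells. *Clec10a* was at 808 CPM in Lyve1+, 899.8 in Timd4+, 635 in Trem2+, 382 in Folr2+Lyve1-, 353 in Ccr2+ and 182 in Lyz1-high CD cells, and at 698, 481, 321, 407, 214 and 129 CPM in the same HFD classes. *Clec10a* intervals met between Folr2+Lyve1- and Ccr2+ cells in CD and between Timd4+ and Folr2+Lyve1- cells in HFD. Of the 6 classes, Timd4+ and Lyve1+ cells had the highest levels of both lectins in each library, and Trem2+ cells lay between them and Lyz1-high cells. Folr2+ cells outside the Trem2+, Timd4+, Lyve1+, Lyz1-high and Ccr2+ sets were as high or higher, except for *Mgl2* in HFD. They had 984 CPM of *Mgl2* and 944 of *Clec10a* in CD (190 cells), and 446 and 932 in HFD (241 cells).

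The *Mgl2* level was 670.1 CPM in CD and 283 CPM in HFD, a log2 ratio of -1.24 (95% interval -1.31 to -1.18) or 2.37-fold lower in HFD. It was lower in HFD in all 6 classes, with log2 ratios of -1.45 in Trem2+, -1.21 in Ccr2+, -1.09 in Lyz1-high, -0.85 in Lyve1+, -0.74 in Folr2+Lyve1- and -0.51 in Timd4+ cells, and every interval lay below 0. The makeup of the classes moved along: the summed level of 8 resident markers was 7506 CPM in CD and 4827 in HFD in Lyve1+ cells, 5655 and 1725 in Trem2+, 3171 and 1245 in Ccr2+, and 2831 and 2575 in Folr2+Lyve1- cells, with 1 of the 8, *Lyve1* itself, at 0 in the last. That of 4 monocyte-derived markers was 2859 CPM in CD and 5345 in HFD in Lyve1+ cells. In Timd4+ cells the resident sum was 8015 CPM in CD and 4497 in HFD, and the monocyte-derived sum 2564 and 5092. The part of this in the *Mgl2* ratios was not tested. At 800 UMIs per cell, an *Mgl2* UMI was found in 39.4% of the CD cells (95% exact binomial interval 37.4 to 41.4). In HFD the share was 19.4% (17.6 to 21.2). With HFD levels at the CD mix of classes, the log2 ratio was -0.99. In Lyve1+ cells it was -0.52 with 1000 to 2000 genes and -0.58 with a marker limit of 2 UMIs, both short of 1.5-fold. In Ccr2+ cells it was -0.60 with non-overlapping classes, just past 1.5-fold. Of the Ccr2+ cells 497 of 1326 in CD and 154 of 1131 in HFD were also Lyve1+.

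*Clec10a* was at 534 CPM in CD and 346 CPM in HFD, a log2 ratio of -0.63 (-0.69 to -0.56) or 1.54-fold, just past the limit. Unlike *Mgl2* it did not go in 1 direction in every class: the log2 ratio was -0.99 in Trem2+, -0.90 in Timd4+, -0.72 in Ccr2+, -0.49 in Lyz1-high and -0.21 in Lyve1+ cells, but 0.09 (-0.03 to 0.21) in Folr2+Lyve1- cells. At the CD mix of classes the ratio over all kept cells was -0.39, as the mean of each cell's own CPM -0.28, and at 800 UMIs per cell -0.17, each short of 1.5-fold.

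**Figure D3:**
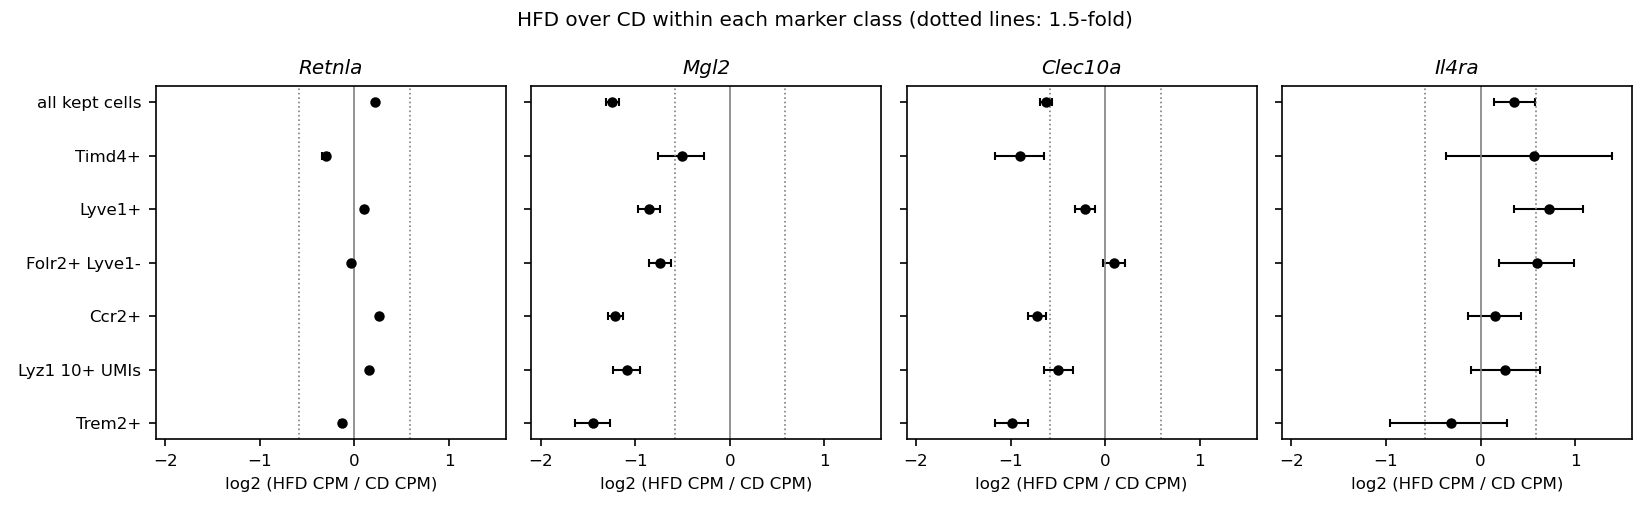
Log2 ratio of HFD over CD CPM (x axis) of 4 members in all kept cells and in each of the 6 classes (y axis), with 95% exact conditional binomial intervals and dotted lines at 1.5-fold. *Mgl2* is below 0 in all 6 classes (-1.45 to -0.51), and *Retnla* lies between -0.31 and 0.25.

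The lectins lie beside each other on chromosome 11 (*Mgl2* at 70130329 to 70137550 and *Clec10a* at 70156197 to 70170834, GRCm38, plus strand) and are close copies: of the distinct stretches of 50 bases in the last 500 bases of their transcripts, 8.52% of those of *Mgl2* occur in *Clec10a* and 13.8% of those of *Clec10a* in *Mgl2*. Reads from such stretches cannot be given to either gene, so both levels may be low by an unknown share. Within the same cells, where depth is shared, 8231 *Mgl2* and 6556 *Clec10a* UMIs gave a ratio of 1.26 in CD, and 2288 and 2795 UMIs a ratio of 0.819 in HFD. On the log2 scale the ratio was 0.33 (0.28 to 0.38) in CD and -0.29 (-0.37 to -0.21) in HFD. It was lower in HFD in 5 classes, by intervals that did not meet: 0.11 and -0.52 in Lyve1+, 0.66 and -0.17 in Folr2+Lyve1-, 0.73 and 0.24 in Ccr2+, 0.59 and -0.01 in Lyz1-high, and 0.31 and -0.16 in Trem2+ cells. In Timd4+ cells it was -0.18 in CD and 0.22 in HFD, where the intervals met. Within CD, *Mgl2* exceeded *Clec10a* most in Ccr2+ and Folr2+Lyve1- cells.

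**Figure D4:**
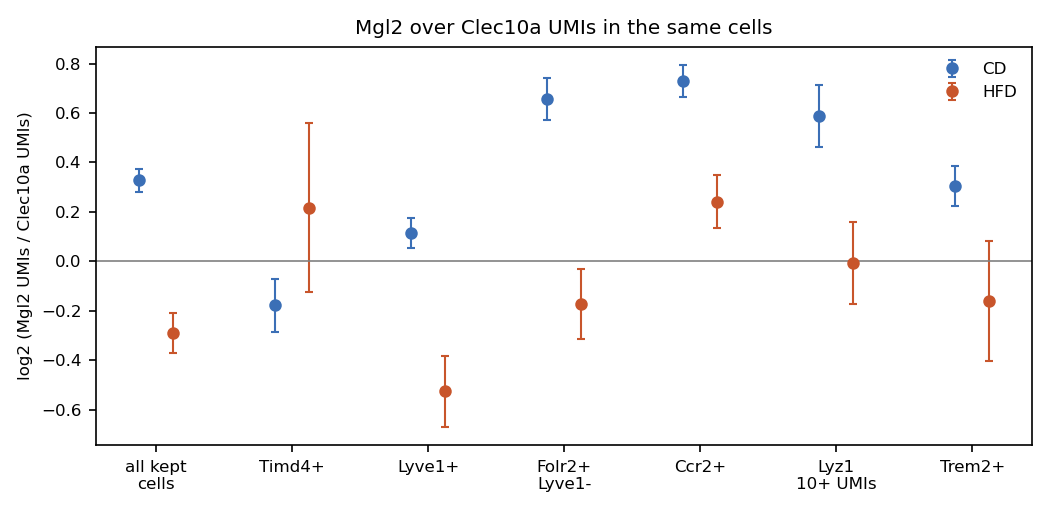
Log2 ratio of *Mgl2* to *Clec10a* UMIs counted in the same cells (y axis), for all kept cells and the 6 classes (x axis) in CD (blue) and HFD (orange), with 95% exact binomial intervals. Over all kept cells the ratio is 0.33 in CD and -0.29 in HFD.

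At 800 UMIs per cell the lectins were found in the same cell somewhat more often than the product of their shares gives, as a description: 383 CD cells had both where 335.8 were expected, and 151 HFD cells where 111.4 were. Within Lyve1+ cells the numbers were 245 and 257.1 in CD and 56 and 52.0 in HFD. The median number of *Retnla* UMIs was 18 in CD cells with *Mgl2* and 22 in those without, and 12 and 19 in HFD. This did not hold within every class: with and without *Mgl2* the medians were 37 and 32.5 in Lyz1-high CD cells, 14 and 7 in Timd4+ HFD cells and 10 and 5 in Trem2+ HFD cells.

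The number of genes detected per cell moved with these levels. In HFD cells with 500 to 999 genes, *Retnla* was at 21215 CPM and *Clec10a* at 982 CPM, and in those with 2000 to 3500 genes at 48521.5 and 161 CPM. In CD the same bins had 31509 and 40494 CPM of *Retnla* and 885 and 289 CPM of *Clec10a*. *Lyz1* was at 1869 and 7859.7 CPM in these HFD bins. *Mgl2* was lower in HFD than in CD in every bin, at 417 against 683 CPM with 500 to 999 genes and at 341 against 819 CPM with 1000 to 1999. With 200 to 499 genes its intervals met (299 against 576 CPM). *Clec10a* was lower in HFD in cells with 1000 to 1999 genes (363 against 759 CPM) and above, but not in those with 500 to 999 (982 against 885), and the intervals met with 200 to 499 genes (647 against 709). *Retnla* was higher in HFD in the bins from 1000 genes up (37994 against 29519 CPM with 1000 to 1999) and lower in the bins under it. The part of depth in these ratios was not tested.

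**Figure D5:**
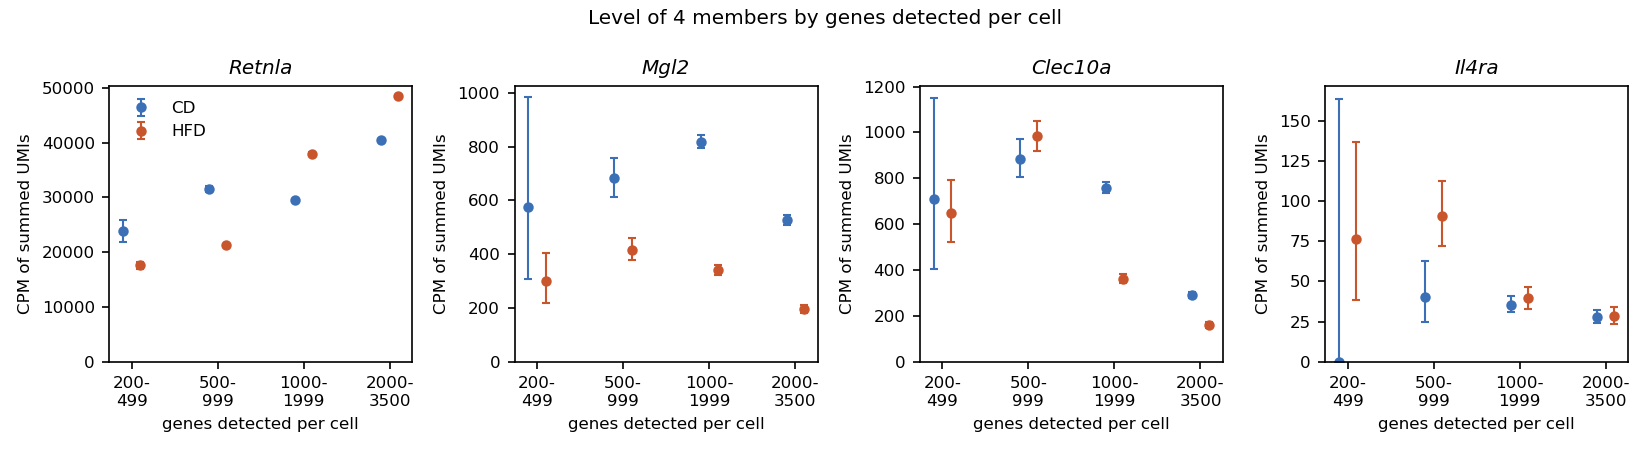
CPM of 4 members (y axis, linear from 0) by the number of genes detected per cell (x axis, 4 bins) in CD (blue) and HFD (orange), with 95% exact Poisson intervals. *Clec10a* is lower in HFD than in CD with 1000 to 1999 genes (363 against 759 CPM) but not with 500 to 999 (982 against 885), and *Il4ra* is higher in HFD cells with 500 to 999 genes (90.7 against 40.5 CPM).

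*Il4ra*, the receptor chain through which IL-4 and IL-13 act (chr7:125552120-125579474, plus strand), was at 31.9 CPM in CD and 40.8 CPM in HFD, a log2 ratio of 0.35 (0.14 to 0.57). Like the lectins it was higher in Lyve1+ than in Lyz1-high cells of each library. In CD it was at 39.7 CPM in Lyve1+, 37.5 in Trem2+, 36.3 in Timd4+, 28.2 in Ccr2+, 27.6 in Folr2+Lyve1- and 25.4 in Lyz1-high cells, and all neighbours had intervals that met. In HFD it was at 65.4 CPM in Lyve1+, 53.5 in Timd4+, 41.6 in Folr2+Lyve1-, 31.2 in Ccr2+, 30.5 in Lyz1-high and 30.2 in Trem2+ cells, again with intervals that met between neighbours. HFD over CD was 0.72 (0.35 to 1.08) in Lyve1+ and 0.59 (0.20 to 0.99) in Folr2+Lyve1- cells, and 0.15 (-0.13 to 0.43) in Ccr2+ and 0.26 (-0.10 to 0.62) in Lyz1-high cells. It was 0.56 (-0.36 to 1.39) in Timd4+ and -0.31 (-0.95 to 0.28) in Trem2+ cells. Over all kept cells the log2 ratio was 0.82 as the mean of each cell's own CPM and 0.72 at 800 UMIs per cell, both past 1.5-fold. With at least 1000 genes it was 0.09. The levels of HFD and CD came close in deep cells, at 39.4 and 35.5 CPM with 1000 to 1999 genes. In Lyve1+ cells the log2 ratio was 0.85 with 1000 to 2000 genes but 0.51, short of 1.5-fold, with at least 1000 genes. In Folr2+Lyve1- cells it was 0.21 with 1000 to 2000 genes, 0.39 with at least 1000 and 0.50 with at most 2500, and 0.56 both with median-of-ratios scaling and with CPM without *Retnla*, mt- and ribosomal protein genes, all short of 1.5-fold. At 800 UMIs per cell, 3.17% of CD and 4.86% of HFD cells had an *Il4ra* UMI. Without thinning the shares were 14.8% and 13.8%, below those of the few endothelial barcodes (20% of 10 and 60% of 5). These barcodes held 3 *Il4ra* UMIs in each library, at 68.1 CPM in CD and 469 CPM (96.7 to 1370) in HFD, above the level of kept cells, and endothelial cells can express the gene, so they give no background for it.

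*Socs2*, an inhibitor of signalling by cytokine receptors (chr10:95385362-95417180, minus strand), was like *Retnla* highest in Lyz1-high cells of each library, at a far lower level. It had 78 UMIs in 57 CD cells and 72 UMIs in 58 HFD cells, or 6.35 and 8.90 CPM. Lyz1-high cells were at 11.97 CPM in CD (95% interval 9.07 to 15.5) and 13.1 CPM in HFD (9.96 to 16.8), and Lyve1+ cells were at 3.35 CPM (1.99 to 5.30) and 2.18 CPM (0.449 to 6.37). Unlike those of *Retnla*, the intervals of Lyz1-high cells met those of the next class. This was Folr2+Lyve1- in CD (7.85 CPM, 5.58 to 10.7) and Ccr2+ in HFD (9.39 CPM, 7.13 to 12.1). Of the 57 CD cells with a UMI 42 were Lyz1-high, as were 49 of the 58 HFD cells, and their median depth was 8724 and 7789 UMIs. The ratio of HFD over CD was 0.49 (0.01 to 0.97) over all kept cells and 0.13 (-0.42 to 0.67) within Lyz1-high cells.

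*Arg1*, the arginase by which alternatively activated macrophages are often scored (chr10:24915221-24927484, minus strand), was rare in both libraries: 39 UMIs in 16 of 2364 CD cells and 36 UMIs in 14 of 2021 HFD cells. The 3 highest cells held 61.5% of these UMIs in CD and 61.1% in HFD. The levels were 3.17 and 4.45 CPM, a log2 ratio of 0.49 (-0.21 to 1.18). Trem2+ cells had the highest level in each library, 6.07 CPM in CD (3.81 to 9.20) and 19.4 CPM in HFD (11.5 to 30.7), from 5 and 7 cells, but the intervals met those of the next class, Ccr2+ cells in CD (3.80 CPM) and Timd4+ cells in HFD (17.8 CPM). Single cells weighed in these Trem2+ values: 1 cell held 11 of the 22 UMIs in CD and 1 held 7 of the 18 in HFD. Both of these cells also had *Plac8*, a gene high in monocytes. The Timd4+ value in HFD came from 5 UMIs in 1 cell that was also Trem2+, and HFD Timd4+ cells outside the Trem2+ set had no *Arg1* UMI. In CD cells with *Plac8*, *Arg1* was at 58.6 CPM against 1.91 CPM in the rest, with 16 UMIs in 2 of 42 such cells. In HFD these levels were 17.7 and 3.77 CPM, but all 7 *Arg1* UMIs of cells with *Plac8* were in 1 cell, and *Plac8* was at 40.1 CPM in cells with *Arg1* and 90.6 CPM in those without. The 4 HFD cells with *Gata6*, the factor of peritoneal macrophages, held 5 of the 36 UMIs. All 5 were in 1 cell, the Timd4+ and Trem2+ cell named above.

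*Chil3*, the chitinase-like Ym1, had 19 UMIs in 11 CD cells and 67 UMIs in 22 HFD cells, or 1.55 and 8.29 CPM. The 3 highest cells held 47.4% of these UMIs in CD and 38.8% in HFD. The log2 ratio of HFD over CD was 2.42 (1.67 to 3.24), the largest among the members. *Chil3* is also a gene of monocytes, and its UMIs were found with markers of these. In HFD 54 of the 67 UMIs were in the 73 cells with *Plac8*, at 137 CPM against 1.69 CPM in the rest, and 28 were in the 19 cells with *Ly6c2*. In CD 5 of the 19 UMIs were in the 42 cells with *Plac8*, at 18.3 CPM against 1.17 CPM in the rest. *Mgl2* was at 8.52 CPM in the HFD cells with *Chil3* and 287 CPM in those without, and *Retnla* at 19085.5 and 40866 CPM. Timd4+ cells of CD and Lyve1+ cells of HFD had no *Chil3* UMI, which allows up to 1.78 CPM and 2.18 CPM by a count of 3. Of the stretches of 50 bases in the last 500 bases of *Chil3* transcripts 17.8% occur in *Chil4*, which had no UMI in either library.

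*Pdcd1lg2*, the PD-1 ligand PD-L2 (chr19:29410919-29471161, plus strand), had 5 UMIs in 4 CD cells and 6 UMIs in 6 HFD cells, or 0.407 and 0.742 CPM, too few to compare classes or diets. *Ccl17*, a chemokine of dendritic cells and alternatively activated macrophages, was found in 2 of the 4 CD cells and in 1 of the 6 HFD cells.

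The comparison of monocyte-derived with resident cells was made between Lyz1-high and Lyve1+ cells of the same library. Genes with at least 50 UMIs over both sides were called where they differed at least 1.5-fold. In CD 30.5% of 8632 such genes were called (8.39% higher and 22.1% lower in Lyz1-high cells), and 5 of the 5 members that reached 50 UMIs. In HFD 26.8% of 7307 genes (7.14% higher and 19.7% lower) and again 5 of 5 members were called. *Retnla* and *Socs2* were higher in Lyz1-high cells, by 0.71 and 1.84 on the log2 scale in CD and by 0.76 and 2.58 in HFD. *Mgl2*, *Clec10a* and *Il4ra* were lower, at log2 ratios of -1.68, -2.15 and -0.64 in CD and -1.92, -2.43 and -1.10 in HFD. *Chil3*, *Arg1* and *Pdcd1lg2* had too few UMIs. The members thus split into opposite directions, the same ones in both libraries. The median log2 ratio over all genes was -0.17 in CD and -0.15 in HFD, and relative to it *Il4ra* was at -0.47 in CD, short of 1.5-fold. In cells with 1000 to 2000 genes, *Retnla* was at 0.94 and 1.29, *Mgl2* at -1.82 and -2.57 and *Clec10a* at -2.23 and -2.71, in CD and HFD.

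Between diets over all kept cells, 13.6% of the 9929 genes with at least 50 UMIs were called (4.7% higher and 8.94% lower in HFD), and 3 of the 7 members that reached 50 UMIs: *Mgl2* and *Clec10a* lower and *Chil3* higher. Within classes, 1 of 4 members tested was called in Timd4+ cells (*Clec10a* lower, 25.2% of all genes called), 2 of 4 in Lyve1+ cells (*Mgl2* lower and *Il4ra* higher, 15.8%), 2 of 5 in Folr2+Lyve1- cells (the same as in Lyve1+ cells, 13.1%), 3 of 7 in Ccr2+ cells (*Mgl2* and *Clec10a* lower and *Chil3* higher, 12.4%), 1 of 5 in Lyz1-high cells (*Mgl2* lower, 10.9%) and 2 of 4 in Trem2+ cells (*Mgl2* and *Clec10a* lower, 25.7%). *Mgl2* was the member called in most classes, 5 of 6. The 72 Timd4+ HFD cells are few and their makeup differed from CD: the summed level of *Gata6* and *Icam2*, markers of peritoneal macrophages, was 26.8 CPM in CD and 107.0 CPM in HFD. The sum of 5 dendritic cell markers, 1 of them at 0 in each library, was 41.6 and 571 CPM, of which *Ccl17* made up 474 CPM in HFD. Over all kept HFD cells 84.9% of the *Ccl17* UMIs were in 3 cells, so this sum can rest on very few cells. Without cells that had a UMI of *Gata6* or of markers of endothelial, B, T, stromal cells or neutrophils, *Clec10a* in Timd4+ cells was at -0.77, *Mgl2* at -0.37 and *Il4ra* at 0.75, past 1.5-fold.

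The other genes of the IL-4 and IL-13 pathway did not go in 1 direction between diets. Of 54 genes on the list, which holds *Il4ra* itself, 45 reached 50 UMIs, and 7 of them were called higher in HFD, 10 lower and 28 neither. That is 37.8% against 13.6% of all genes, and the median log2 ratio was -0.04 against -0.02. *Il4*, *Il13*, *Il33* and *Csf2* had too few UMIs to compare or none. *Il13ra1*, the partner of *Il4ra* in the receptor for IL-13, was at 22.6 CPM in CD and 15.1 in HFD, and *Il2rg*, its partner in blood cells, at 52.0 and 50.6. *Stat6* was at 54.1 and 56.3 CPM, and *Jak1* at 134.9 and 124.9. *Irf4* and *Pparg*, which are known to act in alternative activation, were at 75.1 and 79.5 and at 10.7 and 12.6 CPM. *Il13ra1* was called lower (log2 ratio -0.59), and *Il2rg*, *Stat6*, *Jak1*, *Irf4* and *Pparg* were not called.

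The 4 highest ratios on the list were 2.46 for *Alox15*, a lipid-oxidising enzyme (4.80 and 26.5 CPM in CD and HFD), 1.20 for *Ccl17* (18.9 and 43.5 CPM), 1.19 for the macrophage elastase *Mmp12* (38.7 and 88.3 CPM) and 1.11 for the transcription factor *Cebpb* (666 and 1434 CPM). *Cebpb* was found in 1857 CD and 1700 HFD cells, but *Alox15* in 18 and 22 cells and *Ccl17* in 31 and 27 cells, with 52.8% and 84.9% of their HFD UMIs in 3 cells. *Mmp12* was found in 69 CD and 118 HFD cells, with 38.0% and 42.6% of its UMIs in 3 cells. *Alox15* is also a gene of peritoneal macrophages, and 23 of its 59 CD UMIs and 41 of its 214 HFD UMIs were in the 6 and 4 cells with *Gata6*. The lowest ratios were -1.96 for the cytokine *Tslp* (79.2 and 20.4 CPM), -1.34 for the coagulation factor *F13a1* (1115 and 441 CPM), -1.11 for *Socs1*, an inhibitor of signalling (9.36 and 4.33 CPM), and -0.92 for the chemokine *Ccl24* (1033 and 546 CPM). *Tslp* was at -2.93 and *F13a1* at -1.60 on the log2 scale in Lyz1-high over Lyve1+ CD cells, so both belong to the Lyve1+ side as *Mgl2* does. The mannose receptor *Mrc1* was at 838 CPM in CD and 529 CPM in HFD.

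Genes of classical activation were as mixed. Of 20 genes 15 reached 50 UMIs, with 3 called higher, 3 lower and 9 neither, and *Nos2*, *Il12a* and *Il12b* had no UMI. The share called was 40% against 13.6% of all genes. *Socs3*, called lower, is on this list and on that of the pathway. *Ptgs2*, the inducible cyclooxygenase, was at 16.6 CPM in CD and 64.4 in HFD, *Il6* at 102 and 179 CPM, *Il1b* at 563 and 840.2 CPM and *Cd80* at 23.0 and 28.1 CPM. *Ccl5* was at 23.8 and 3.46 CPM, with 74.0% of its CD UMIs in 3 cells, *Cd40* at 40.1 and 20.5 CPM, *Socs3* at 189.5 and 118 CPM and *Irf1* at 107 and 84.7 CPM. *Il1b* and *Il6* were on the side of *Retnla* in Lyz1-high over Lyve1+ CD cells, at log2 ratios of 1.78 and 2.22.

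Of 18 relatives of the members 10 reached 50 UMIs, with 1 called higher (*Cd274*), 3 lower (*Retn*, *Socs1* and *Socs3*) and 6 neither. The share called was 40% against 13.6% of all genes. *Socs1*, *Socs3* and *Cish* are also on the list of the pathway, so the counts of the lists are not separate. *Retnlg* and *Retnlb*, the close relatives of *Retnla*, were at 0.49 and 0.16 CPM in CD and at 0 and 0.37 CPM in HFD, and no stretch of 50 bases in the last 500 bases of *Retnla* occurs in their transcripts. *Retn* was at 14.7 CPM in CD and 7.42 in HFD, *Cd274*, the other PD-1 ligand, at 1.87 and 4.08 CPM, and *Arg2* at 0.41 and 0.62 CPM. Of the SOCS family *Cish*, *Socs4*, *Socs5* and *Socs6* had log2 ratios of HFD over CD between 0.18 and 0.27, *Socs3* was at -0.68 and *Socs1* at -1.11, and the lectin receptor *Asgr2* was at -0.53. *Cish* and *Socs6* were higher in Lyz1-high than Lyve1+ CD cells, at 1.74 and 1.27, as *Socs2* was.

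As a description of shared patterns, levels were correlated over 7 non-overlapping classes in both libraries, 14 points that share libraries and depth, with each library centred, among 4255 genes. The genes most like *Retnla* were *Sem1* (Pearson r 0.97), *Fcrls* (0.95) and *Serf2* (0.94). Those most like *Clec10a* were *Igfbp4* (0.99), the scavenger receptor *Cd163* (0.99) and *Serinc3* (0.99), those most like *Mgl2* were *Ly6e* (0.94), *Ighm* (0.94) and *Dnajb1* (0.93), and *Zcchc24* (0.95) and *Itsn2* (0.93) were among those most like *Il4ra*. Among the members, r was 0.87 for *Mgl2* and *Clec10a*, 0.75 for *Clec10a* and *Il4ra*, -0.64 for *Retnla* and *Mgl2* and -0.65 for *Retnla* and *Clec10a*.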

How the data were processed

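ATMs of the CD and HFD mice were measured by droplet-based scRNA-seq (10x 3' v2), 1 library of 3 pooled mice per diet. The deposited matrices hold raw UMI counts for each gene in each barcode. Per the methods and file headers, reads were aligned to mm10 and counted by Cell Ranger 3.0.2, with no normalisation. Near-identical copies lose reads that map to both, and a UMI count covers the 3' end only. No doublet caller was run; the upper limit of 3500 genes was the 1 guard.

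UMIs were summed over cells in Python 3.11.15 (numpy 2.4.6, scipy 1.17.1, pandas 2.3.3) and scaled to CPM, with exact Poisson intervals for levels, exact conditional binomial intervals for ratios and exact Clopper-Pearson intervals for shares, all at 95%. Genes with at least 50 UMIs over both sides were called at 1.5-fold. Shares and medians per cell used cells thinned to 800 UMIs with a fixed seed. No p-value was computed. Intervals and calls were run on simulated Poisson counts. These hold no spread between cells, mice or libraries, so the run bears on counting error only. From each list, genes with at least 100 UMIs were named, up to 4 with the highest and 4 with the lowest ratio, along with single genes chosen after their values were seen (*Il13ra1*, *Il2rg*, *Stat6*, *Jak1*, *Irf4*, *Pparg*, *Mrc1*, *Retnlg*, *Retnlb*, *Cd274*, *Arg2*, *Il4*, *Il13*, *Il33*, *Csf2*, *Nos2*, *Il12a*, *Il12b*, *Chil4*, and *Plac8*, *Ly6c2*, *Gata6* and *Ccl17* as markers). For members with at least 100 UMIs in each library the 3 genes most alike in pattern were named, of which 1 is not reported here. The members, classes and lists were chosen with earlier results of these data known. Alternatives changed the cell filters, scaling, depth, class limits and gene minimum. Leaving out shared barcodes, 1000 to 2000 genes per cell, and *Lyz1* at 0.2% of UMIs were added after seeing the data. With cells thinned to 800 UMIs Lyz1-high was set at 2 UMIs of *Lyz1*, and with a marker limit of 2 UMIs at 20.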

Additional observations from a re-analysis of the deposited data

Results flagged for a closer look

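*Retnla* was marked because HFD and CD differed in opposite directions between classes: the log2 ratio of HFD over CD was 0.25 in Ccr2+ cells (39446 and 47059.7 CPM in CD and HFD) and -0.31 in Timd4+ cells (29945 and 24223 CPM), with intervals on opposite sides of 0. The difference between the classes was not tested, since each diet had 1 library. Timd4+ cells also differed in makeup between the libraries: 286 of 368 in CD and 28 of 72 in HFD were also Lyve1+.

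*Il4ra* was marked for a signal among barcodes that the filters left out, 2095 in CD and 1142 in HFD: it was at 45.2 CPM in CD (123 UMIs) and 85.3 CPM in HFD (92 UMIs), a log2 ratio of 0.92 (0.51 to 1.32). The same barcodes held *Clec10a* at 779 and 706 CPM, *Mgl2* at 431 and 217 CPM and *Retnla* at 23424 and 21765 CPM.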

How the results depend on the processing

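The 3 members called between diets over all kept cells became 2 to 4 under 13 alternatives. By log2 ratio *Mgl2* stayed lower in each (-1.34 to -0.99) and *Chil3* higher (2.05 to 3.06), while *Clec10a* ranged from -1.07 to -0.17 and *Retnla* from -0.02 to 0.36. With cells thinned to 800 UMIs *Chil3* did not reach 50 UMIs and was not called. The ratio of *Il4ra* ranged from 0.09 to 0.82, that of *Arg1* from -1.28 to 1.18 and that of *Socs2* from -0.18 to 0.79. The 5 calls of Lyz1-high over Lyve1+ cells were 3 in CD and 3 in HFD with cells thinned to 800 UMIs (Lyz1-high at 2 UMIs of *Lyz1*), where fewer members reach 50 UMIs, and 8 in CD with no minimum of UMIs. The 11 calls over the 6 classes between diets were 21 with no minimum. No alternative reversed a call over all kept cells or in Lyz1-high over Lyve1+ cells. Within classes, *Clec10a* in Ccr2+ cells, called lower at -0.72, was at 0.05 with non-overlapping classes. Class limits do not enter the comparison of all kept cells. No paired analysis was possible because each diet had 1 library. With 1 library of pooled mice per diet, mouse, library and diet cannot be told apart, and *Pdcd1lg2* in every class, and *Arg1* and *Chil3* in classes other than Ccr2+, stayed under 50 UMIs.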
